A study of Mus musculus with 6 samples.

Results

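The protein phosphatase genes were followed in the hippocampus of Rsk2-KO mice and of their WT littermates. They were taken as all genes whose single annotated symbol starts with Ppp1 to Ppp6 or with Ppm1. This gave 59 genes, measured by 110 probe sets, out of 12394 genes with a single symbol on the arrays. Rsk2 is a protein kinase downstream of ERK, encoded by the X-linked gene Rps6ka3. The 3 arrays of each group held hippocampal RNA of 2-month-old males of strain C57BL/6J, the Rsk2-KO mice or their normal littermates, and each array held a pool of 2 hippocampi. The labels name the knockout only as Rsk2-KO, without saying how the allele was built or whether pools share animals. The stated question was which pathways differ in the knockout hippocampus. Values are probe set signals on a linear scale, and differences are mean log2 signal of the KO-labelled arrays minus that of the WT-labelled arrays.

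Protein phosphatases remove the phosphate groups that kinases such as Rsk2 add. PP1, PP2A, calcineurin, PP4, PP5 and PP6 share a related catalytic core. Apart from PP5, they gain their targets through regulatory, scaffold and inhibitor subunits. The PPM enzymes work largely as single chains that need magnesium or manganese. In hippocampal neurons PP1 and calcineurin are known for opposing kinases in synaptic depression, and PP1 removes the phosphate from the transcription factor CREB. Rsk2 is one of the kinases that add it, and CREB binds the cyclic AMP response element, or CRE.

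Because of this link, the CRE letters TGACGTCA, which read the same on both strands, were searched for in the 250 bases before each RefSeq gene start (GRCm38.p6). A window was found for 46 of the 59 genes, and 6 of these (13.0%) held the motif, against 1.77% of all 27025 genes with a window. Among genes that also passed the signal filter it was 6 of 41 (14.6%) against 204 of 6439 (3.17%). The stretches below show the motif in capitals with up to 30 bases on each side, 5′ to 3′ on the strand of the gene.
Ppm1a: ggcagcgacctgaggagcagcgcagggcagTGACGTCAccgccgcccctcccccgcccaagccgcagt
Ppm1d: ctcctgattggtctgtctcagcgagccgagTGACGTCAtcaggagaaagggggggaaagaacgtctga
Ppp1r12c: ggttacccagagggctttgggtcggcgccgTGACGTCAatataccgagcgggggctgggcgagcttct
Ppp1r15a: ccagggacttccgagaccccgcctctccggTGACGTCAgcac
Ppp2ca: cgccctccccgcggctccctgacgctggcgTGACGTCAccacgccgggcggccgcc
Ppp2r2d: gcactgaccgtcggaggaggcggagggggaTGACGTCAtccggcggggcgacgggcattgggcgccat
They lie at chr12:72761045-72761112 (+ strand) for Ppm1a, chr11:85311139-85311206 (+) for Ppm1d, chr7:4501712-4501779 (−) for Ppp1r12c, chr7:45526269-45526310 (−) for Ppp1r15a, chr11:52098768-52098823 (+) for Ppp2ca and chr7:138846308-138846375 (+) for Ppp2r2d. All 6 genes passed the signal filter, and at the brightest probe set none had groups that did not overlap. The groups did not overlap in 31 of the 204 tested genes with the motif and in 14.2% of all genes. With 6 genes, a count of 0 says little. Ppm1a and Ppp2ca each had a dimmer probe set without overlap. Their log2 differences were −0.06, 0.47, −0.18, −0.08, −0.06 and 0.03 in the order printed. The median of the 6 was −0.06, against −0.02 for the other phosphatase genes with a window and −0.02 for the 204 tested genes with the motif. A match in these letters is a description of the sequence and does not show that CREB binds there.

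Of the 59 genes, 51 had a brightest probe set above the filter, a mean signal of 19.2 (the 40th percentile), and these are described from here on. The other 8 were Ppp1r14bl, Ppp1r14d, Ppp1r16b, Ppp1r17, Ppp1r2-ps9, Ppp1r32, Ppp1r3a and Ppp1r42. Their signals lay between 0.369 and 12.8 on every array, and no fold is given for them. All of the dim genes belong to the PP1 regulators, so 20 of 28 PP1 genes remained, with all 13 PP2A, 4 calcineurin, 5 PPM and 9 PP4, PP5 and PP6 genes.

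The brightest Rps6ka3 probe set gave 99.2, 98.4 and 87.0 for the KO label against 74.2, 59.7 and 89.2 for the WT label, so the targeted gene was not lower. The place of its probe sets relative to the disrupted part was not analysed here, and groups are therefore named by label. KO 3 and WT 3 differed from the rest in the 3′ to 5′ signal ratio of Actb, a sign of RNA quality, at 2.24 and 2.22 against at most 1.63. The other control genes did not share this. For Gapdh the ratios of KO 3 and WT 3 were 0.774 and 0.823, against 0.719 to 0.783 on the rest. For Tfrc, a dim gene, they were lower, at 2.09 and 1.86 against 2.69 to 3.51. Arrays 3 thus stood apart, but the ratios did not settle whether RNA quality differed. Differences are therefore also given for arrays 1 and 2 alone and for arrays 3 alone. Of 8 hippocampal neuron markers, 5 passed the filter (Neurod6, Wfs1, Prox1, Calb1 and Dsp) and 3 were not analysed here. Their summed signal was 1527 to 1636 for the KO label and 1348 to 1450 for the WT label, most of it from Calb1 and Neurod6. Of the 5 differences 4 were above 0, with a median of 0.03, and Prox1 was at −0.28. All 9 microglial markers passed the filter and summed to 1332 to 1385 against 1472 to 1509, with 3 differences above 0 and 6 below. The sums of the other marker lists overlapped between the labels. The part of these marker levels in the results below was not tested.

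No phosphatase gene was called in limma at an adjusted p of 0.05, 0 of 51, where percent called over all 7866 genes was 0. At an unadjusted p of 0.05 there was 1 of 51, Ppp4r2, against 7.49% of all genes. The groups did not overlap in 4 of 51 genes (7.84%), against 14.2% of all genes. Of these, 3 were higher on the KO-labelled arrays (Ppp4r2, Ppp1r2 and Ppp6c), where all genes gave 5.47%, and 1 was lower (Ppp5c), where all genes gave 8.76%. The number of phosphatase genes whose groups do not overlap moved with the arrays used. Leaving out KO 2 gave 8 (15.7%, against 20.8% of all genes). Leaving out KO 3 gave 17 (33.3% against 36.4%). It was 10 without WT 2 (19.6% against 23.4%), 15 without WT 3 (29.4% against 34.9%) and 29 without both arrays 3 (56.9% against 57.2%). In each of these settings the share of phosphatase genes lay at or below that of all genes.

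**Figure D1:**
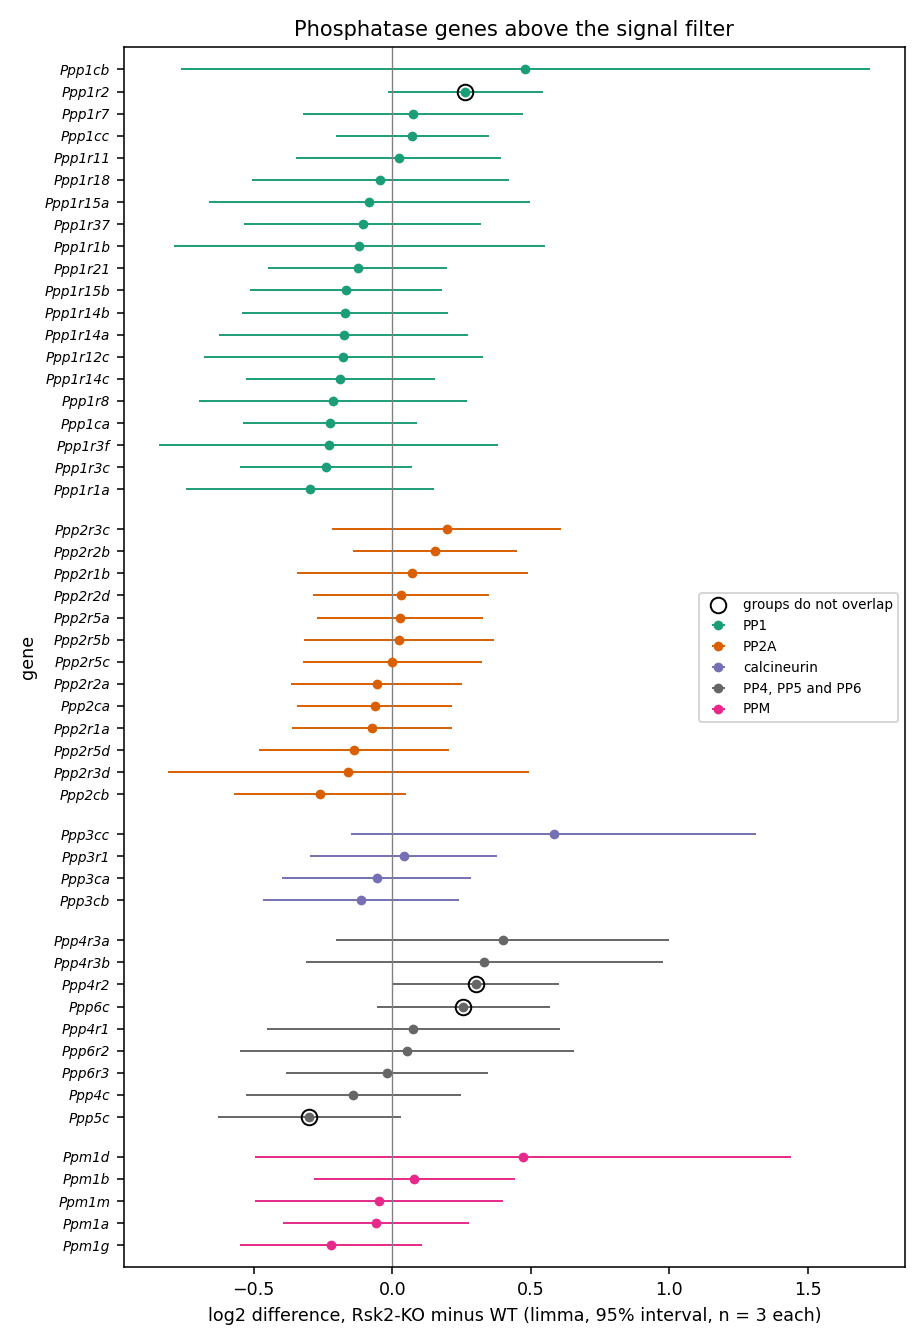
Log2 difference (horizontal axis, Rsk2-KO minus WT) of each of the 51 phosphatase genes above the filter, with its 95% interval from limma (3 arrays per group), sorted within families by colour. Circles mark the 4 genes whose groups do not overlap, and the interval of Ppp4r2 alone, by a small margin, does not reach across 0.

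PP1 genes had a median log2 difference of −0.15, with 15 of 20 below 0, and the other medians were −0.00019 for PP2A (7 of 13 below 0), −0.0078 for calcineurin (2 of 4), −0.05 for PPM (3 of 5) and 0.08 for PP4, PP5 and PP6 (3 of 9). Over all genes the median was −0.04, with 56.4% below 0. The PP1 median by array, as deviation from each gene's mean over the 6 arrays, was −0.11, −0.07 and 0.05 for the KO label and 0.03, 0.0021 and 0.18 for the WT label. These ranges overlapped, as they did in every family. The SD of the array medians within groups was 0.09 for PP1, 0.04 for PP2A, 0.14 for calcineurin, 0.12 for PPM and 0.14 for PP4, PP5 and PP6. The tested PP1 genes spanned a median of 12.9 kb on the genome, against 23.7 kb for all genes. After a fitted trend on gene span was taken out of every array the median log2 difference of PP1 genes was −0.08. That fit also takes out each array's own level, so this value does not compare with the −0.04 of all genes. The part of gene span in the PP1 median was not tested. Without any trend removed, leaving out KO 1 gave −0.08 as well.

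**Figure D2:**
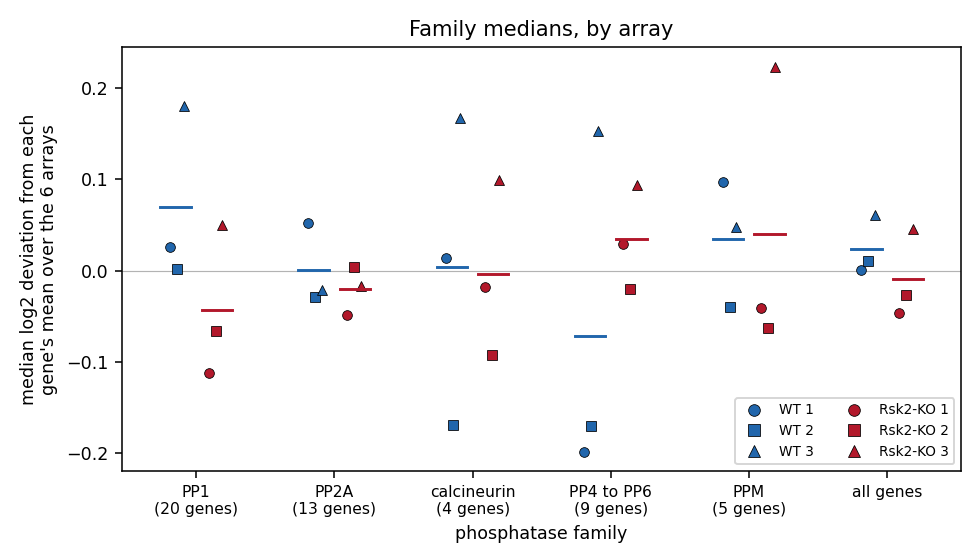
Median log2 deviation of each family (vertical axis) on each of the 6 arrays, with lines at the mean of the 3 arrays of a group; colours give the label and shapes the array number. In PP1 the KO-labelled arrays reach from −0.11 to 0.05 and the WT-labelled arrays from 0.0021 to 0.18, and in the PP4, PP5 and PP6 set WT 1 and WT 2 lie lowest.

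PP1 has 3 catalytic genes, whose products are nearly alike and take different partners. Ppp1ca had signals of 659, 624 and 618 for the KO label and 816, 795 and 625 for the WT label. Only WT 3 lay among the Rsk2-KO signals, and the log2 difference was −0.22 (SE 0.14, adjusted p = 0.647 in limma), or −0.33 on arrays 1 and 2 and −0.02 on arrays 3. Ppp1cc had 1282, 1261 and 1385 against 1215, 1240 and 1279, a log2 difference of 0.07 with a 95% interval of −0.20 to 0.35. Its 2 probe sets had the same sign.

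Ppp1cb, the isoform found with myosin-targeting subunits, varied most, and at its brightest probe set more with the array number than with the label. Its brightest probe set gave 1169, 1111 and 328 for the KO label and 837, 855 and 219 for the WT label. Both arrays 3 lay 3.66-fold below the others on average. By size this difference ranked 11 of 7866 genes, of which 108 were lower by over 1 on the log2 scale on arrays 3 and 39 higher. This comparison was chosen after the values were seen. At 2 further probe sets arrays 3 were 4.61-fold and 3.32-fold lower, but at the fourth they were 1.10-fold lower, with WT 1 the lowest array. The label difference of Ppp1cb was 0.48 (SE 0.56, adjusted p = 0.789 in limma), 0.43 on arrays 1 and 2 and 0.58 on arrays 3. The fit took no pairing, so this SE also holds the drop of arrays 3. The difference was above 0 at all 4 probe sets, and at each the KO-labelled array lay above the WT-labelled array of the same number. It was −0.17 without WT 3 and 1.08 without KO 3, but in each of these settings the low array 3 of the other label stayed in. The Actb ratio and Neurod6, with 183 and 122 on arrays 3 against 299 to 523 on the others, moved with the same pair, and their part in the Ppp1cb signal was not tested.

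**Figure D3:**
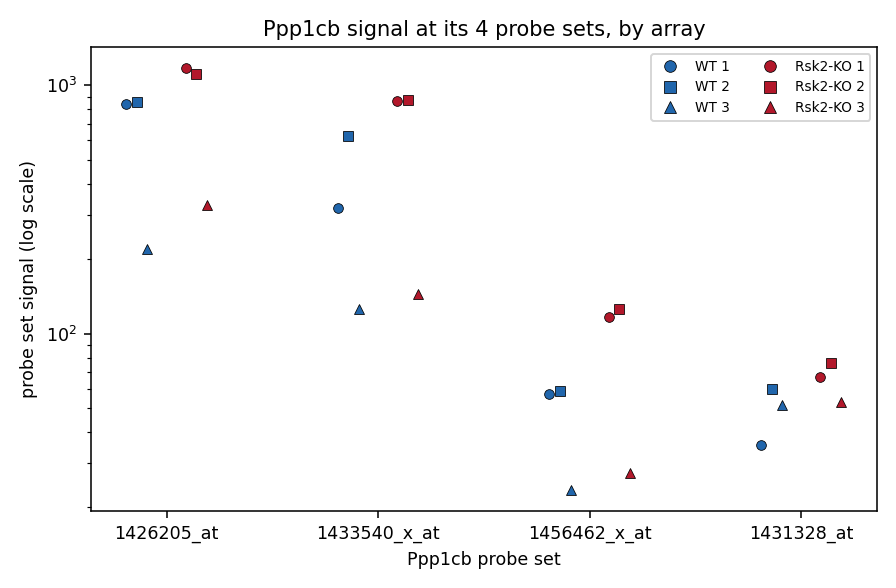
Signal of Ppp1cb (vertical axis, log scale) on each array at each of its 4 probe sets (horizontal axis), coloured by label and shaped by array number. The triangles, arrays 3, lie 3.32-fold to 4.61-fold below the other arrays at 3 probe sets and 1.10-fold below at the fourth.

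Among the PP1 inhibitors, 5 of 7 were below 0, with a median of −0.17, and 0 of 7 were called. Without both arrays 3 there were 3 below 0 and 4 above, with a median of 0.01. With array weights 4 were below 0, with a median of −0.06. Ppp1r2, or inhibitor-2, had 508, 529 and 520 against 470, 425 and 405, so every KO-labelled array lay above every WT-labelled array. The log2 difference was 0.26 (SE 0.13, adjusted p = 0.617), with 0.21 on arrays 1 and 2 and 0.36 on arrays 3. A second probe set gave 0.27 and the dimmest −0.0013, so the direction was not shared by all. Ppp1r1a, or inhibitor-1, which protein kinase A activates and calcineurin turns off, had 187, 194 and 301 against 232, 276 and 317. Its groups overlapped through KO 3, and the log2 difference was −0.30 (SE 0.20), −0.41 on arrays 1 and 2 and −0.07 on arrays 3. Ppp1r1b, or DARPP-32, best known from striatal neurons, had 48.2, 66.3 and 38.0 against 34.4, 69.9 and 64.7. The order of its arrays did not follow the label, and its difference of −0.12 (SE 0.30) turned from 0.21 to −0.77 between the numbers. Of 9 striatal markers, 3 passed the filter, with a summed signal of 163 to 258 against 140 to 236, ranges that overlapped; their part in the Ppp1r1b signal was not tested. The related inhibitors Ppp1r14a, Ppp1r14b and Ppp1r14c, whose products can block PP1 bound to myosin phosphatase, differed by −0.18, −0.17 and −0.19, all with overlap, and Ppp1r11 by 0.02. On arrays 1 and 2 and on arrays 3, Ppp1r14a had 0.01 and −0.55, Ppp1r14b −0.10 and −0.31, and Ppp1r14c −0.32 and 0.08.

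The 10 targeting and regulatory subunits of PP1 were below 0 in 9 cases, with a median of −0.15, and 0 were called. The count was 6 without KO 1 and 6 without WT 3. It was 8 without KO 2, and 10 without KO 3, without WT 1 or without WT 2. Ppp1r3c, which brings PP1 to glycogen, had 387, 377 and 440 against 458, 430 and 536. The groups overlapped through KO 3 and WT 2 alone, and its log2 difference was −0.24 (SE 0.14, adjusted p = 0.627), with −0.22 and −0.29 by array number and a second probe set at −0.34. Ppp1r15a and Ppp1r15b, which bring PP1 to the translation factor eIF2 alpha, differed by −0.08 and −0.17. Ppp1r15a, the stress-induced of the pair, had 31.8, 58.2 and 38.5 against 35.9, 46.4 and 50.7, with a 95% interval of −0.66 to 0.50. Ppp1r8, a nuclear inhibitor and targeting subunit, turned from −0.42 to 0.21 between the numbers, and Ppp1r7, the one member above 0, from 0.16 to −0.10. The rest were Ppp1r12c (−0.18), Ppp1r18 (−0.04), Ppp1r21 (−0.12), Ppp1r37 (−0.11) and Ppp1r3f (−0.23).

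PP2A is a trimer of a catalytic, a scaffold and a variable B subunit. Its catalytic gene Ppp2ca had 1372, 1347 and 1385 against 1548, 1370 and 1378, a log2 difference of −0.06 with a 95% interval of −0.34 to 0.22. WT 1 alone stood above the rest. A dimmer probe set gave 0.14 and did not overlap, so the sign depended on the probe set. Ppp2cb, the second catalytic gene, had 311, 401 and 344 against 413, 445 and 400. KO 2 just passed WT 3, so the groups overlapped, and the log2 difference was −0.26 (SE 0.14, adjusted p = 0.617), with −0.28 and −0.22 by array number.

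The main scaffold gene Ppp2r1a had 2627, 2610 and 2673 against 2861, 2877 and 2593, a log2 difference of −0.07 (95% interval −0.36 to 0.22). Its 5 probe sets were all below 0, from −0.07 to −0.57, and 4 of them end in _x_at, a suffix for probes that may bind other transcripts. Ppp2r1b, the other scaffold gene, differed by 0.07 (SE 0.19). After quantile normalization the differences of Ppp2ca and Ppp2r1a were 0.0080 and 0.05, so these signs rest on the scaling.

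The 9 B subunit genes, whose products set where PP2A acts, had groups that overlapped in every case. Ppp2r2b, a brain B subunit, had 248, 268 and 223 against 224, 212 and 227, a log2 difference of 0.15 (SE 0.13, adjusted p = 0.720), and 0.24 on arrays 1 and 2. The 4 B′ genes Ppp2r5a to Ppp2r5d differed by 0.03, 0.02, −0.00019 and −0.14. Ppp2r5d had 116, 117 and 118 against 135, 145 and 110, so the KO-labelled arrays were close together and the WT arrays lay on both sides. Ppp2r2a and Ppp2r2d differed by −0.06 and 0.03, and the B″ genes Ppp2r3c and Ppp2r3d by 0.20 (SE 0.19) and −0.16 (SE 0.29).

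Calcineurin, the phosphatase switched on by calcium and calmodulin, pairs a catalytic A subunit with the calcium-binding B subunit of Ppp3r1. Ppp3ca, its main brain A subunit, had 2912, 2872 and 3460 against 2994, 2953 and 3683. In both groups array 3 was highest, and the log2 difference was −0.06 with a 95% interval of −0.40 to 0.28. Its 2 other probe sets were above 0, at 0.10 and 0.11. Ppp3cb had 578, 504 and 564 against 643, 476 and 679, a log2 difference of −0.11 (SE 0.16), and a dimmer probe set gave 0.39. Ppp3r1 had 1860, 1855 and 2192 against 2062, 1622 and 2076, a log2 difference of 0.04 with an interval of −0.30 to 0.38. A dimmer probe set of Ppp3r1 gave 0.47 (SE 0.20), also with overlap. For Ppp3cc, the A subunit known best from testis, signals were 28.2, 37.7 and 25.5 against 17.4, 31.3 and 14.7. Its difference was 0.58 (SE 0.33, adjusted p = 0.621), with overlap through WT 2 and signals near the filter of 19.2. The calcineurin median moved from −0.0078 to 0.11 after quantile normalization and to 0.20 with the mean of all probe sets, where 4 of 4 genes were above 0.

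**Figure D4:**
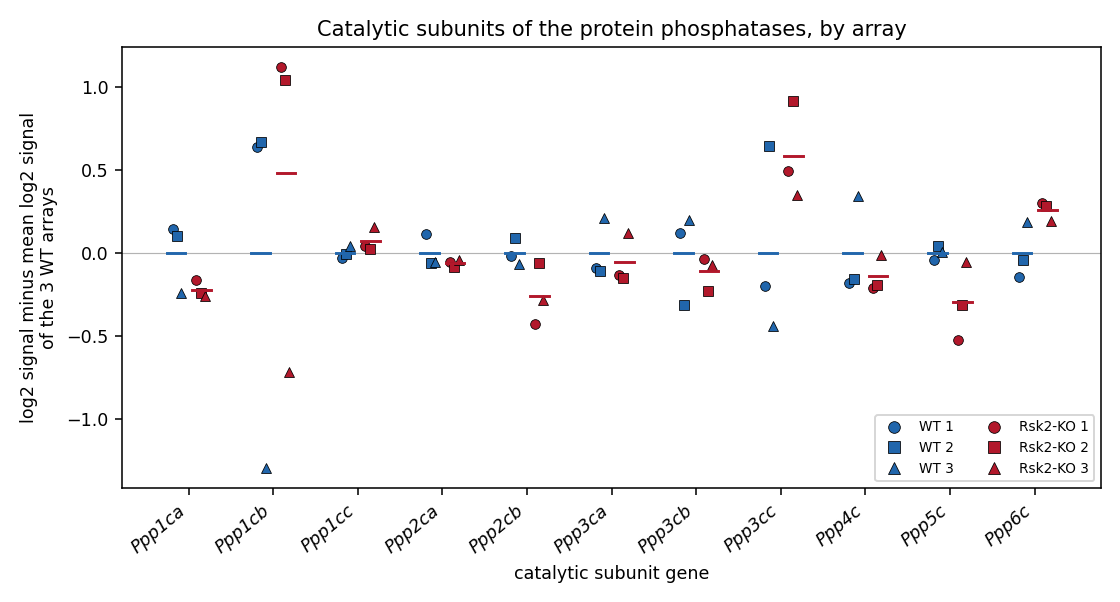
Log2 signal of each of the 11 catalytic subunit genes (horizontal axis) on each array, relative to the mean of the 3 WT arrays (vertical axis), with lines at group means, colours for the label and shapes for the array number. Ppp1cb shows both triangles far below the other arrays, Ppp5c lies below WT and Ppp6c above WT on the KO-labelled arrays.

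Among the 9 genes of PP4, PP5 and PP6, groups did not overlap in 3 (33.3%, against 14.2% of all genes), 2 of them higher (all genes 5.47%) and 1 lower (8.76%). With 9 genes this share rests on few members. The 4 PP4 regulatory subunits were all above 0, with a median of 0.32, and none was called. Ppp4r2, which with the catalytic subunit forms the PP4 complex known from DNA repair, had 259, 263 and 300 against 215, 211 and 241. No array of one label reached the other, and the log2 difference was 0.30 (SE 0.14, unadjusted p = 0.0480, adjusted p = 0.617), with 0.30 and 0.32 by array number. Its second probe set did not overlap either, with 159, 170 and 166 against 122, 121 and 153, a log2 difference of 0.33 (SE 0.15). Over the alternatives tried, arrays left out included, Ppp4r2 stayed between 0.24 and 0.36.

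Ppp4r3a and Ppp4r3b, a pair of related subunits of that complex, differed by 0.40 (SE 0.27) and 0.33 (SE 0.29). Ppp4r3a had 71.9, 87.4 and 53.9 against 42.0, 78.3 and 45.0, with WT 2 among the Rsk2-KO arrays. Ppp4r3b, named after its values were seen, had 104, 94.5 and 109 against 62.5, 60.6 and 142, with WT 3 highest of all, so its difference was 0.69 on arrays 1 and 2 and −0.38 on arrays 3. It was the 1 gene among phosphatase genes called without both arrays 3 (adjusted p = 0.0499 over all genes), where 284 of all genes (3.61%) were called. At the dimmest of its 4 probe sets the groups did not overlap, with 53.2, 50.2 and 38.5 against 21.0, 21.5 and 30.9, a log2 difference of 0.96 (SE 0.25, adjusted p = 0.661 among all probe sets). Ppp4r1 differed by 0.08, and the catalytic Ppp4c by −0.14 (SE 0.17), below 0 unlike its partners, and by 0.03 without WT 3. In the regulatory set 3 of 4 were above 0 without KO 3, without WT 1 or without WT 2.

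Ppp5c, which carries its own protein-binding repeats and works with Hsp90, had 215, 248 and 298 against 300, 318 and 310. KO 3 lay just under the WT arrays, and the log2 difference was −0.30 (SE 0.15, adjusted p = 0.617), −0.42 on arrays 1 and 2 and −0.06 on arrays 3. All 3 probe sets were below 0, and a second one did not overlap either, with 168, 195 and 205 against 207, 221 and 236. Ppp6c, the catalytic subunit of PP6, had 233, 230 and 216 against 171, 184 and 215, where KO 3 and WT 3 were almost level. Its difference was 0.26 (SE 0.14, adjusted p = 0.618), 0.38 on arrays 1 and 2 and 0.0035 on arrays 3. The PP6 regulators Ppp6r2 and Ppp6r3 differed by 0.05 and −0.02.

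**Figure D5:**
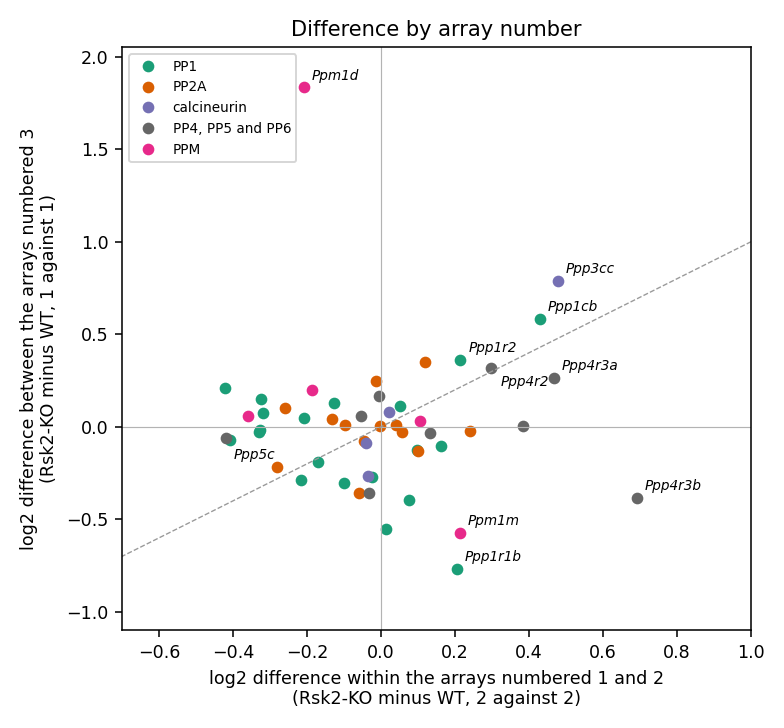
Log2 difference of the 51 phosphatase genes on arrays 1 and 2 (horizontal axis, 2 against 2) and on arrays 3 (vertical axis, 1 against 1), coloured by family, with a dashed line of equality. The signs match in 25 of 51 genes, and Ppp4r3b, Ppm1d and Ppp1r1b change sign.

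The same sign in both subsets was found for 25 of 51 phosphatase genes and 4075 of 7866 genes in all. By family it was 10 of 20 for PP1, 5 of 13 for PP2A, 4 of 4 for calcineurin, 5 of 9 for PP4, PP5 and PP6 and 1 of 5 for PPM. Of the 4 genes without overlap, Ppp4r2 had a difference of like size in both subsets, Ppp1r2 had 0.21 and 0.36, and Ppp5c and Ppp6c were near 0 on arrays 3.

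The PPM genes had a median of −0.05, which was −0.19 without both arrays 3. Ppm1a, which acts on SMAD and stress kinase signalling, had 321, 327 and 432 against 394, 346 and 376, a log2 difference of −0.06 (SE 0.15). The dimmest of its 3 probe sets above the filter gave 173, 184 and 120 against 86.3, 120 and 92.0, a log2 difference of 0.67 (SE 0.21, adjusted p = 0.661 among all probe sets) and no overlap by a narrow margin. Ppm1b differed by 0.08 (SE 0.16). Ppm1d, or Wip1, a p53 target, had 37.4, 41.6 and 44.9 against 44.4, 46.7 and 12.6. Its difference of 0.47 (SE 0.44) came with 1 low array, WT 3, and was −0.15 without it. Ppm1g, a nuclear phosphatase linked to splicing, had 160, 180 and 212 against 211, 225 and 204, a log2 difference of −0.22 (SE 0.15, adjusted p = 0.654), and Ppm1m differed by −0.05, with 0.21 and −0.57 by array number.

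Several genes were read by more than 1 probe set above the filter. Of 22 such genes, 13 had all probe sets on the same side of 0 and 9 did not. Over all 91 phosphatase probe sets above the filter, 9 (9.89%) had groups without overlap, against 13.9% of all 13576 probe sets. Of these 7 were higher and 2 lower, where all probe sets gave 5.9% and 7.96%. These 9 came from 7 genes, of which Ppm1a, Ppp2ca and Ppp4r3b were not among the 4 named above because their brightest probe set overlapped.

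A list of 46 partner genes that are not members by symbol held inhibitors, activators and anchors of PP1, PP2A and calcineurin. Of these, 28 were tested, 13 above 0 and 15 below, with a median of −0.05 and 0 called. At an unadjusted p of 0.05 there were 2, Strn3 and Strn4 (7.14%, against 7.49% of all genes). Groups did not overlap in 3 (2 higher, 1 lower), or 10.7% against 14.2%, so neither share lay above that of all genes. Striatins are B subunits that tie PP2A to kinases, and the 3 striatin genes were not all on the same side of 0. Strn3 had 375, 379 and 366 against 234, 285 and 333, a log2 difference of 0.41 (SE 0.15). Strn had 110, 95.4 and 91.3 against 56.5, 91.2 and 80.5, a difference of 0.40 (SE 0.20). Strn4 lay the other way, with 438, 446 and 369 against 784, 624 and 524, a difference of −0.61 (SE 0.17), all 3 with an adjusted p of 0.617. Mob4, a further member of the striatin complex, differed by 0.40 (SE 0.24). The PP2A activator gene Ptpa and the PP2A methylesterase gene Ppme1 differed by −0.26 (SE 0.15) and −0.32 (SE 0.15). The calcineurin regulators Rcan1, Rcan2 and Rcan3 differed by −0.18, 0.24 and 0.05, all with overlap, and Cdk5 by −0.18 (SE 0.13). Without both arrays 3, Strn4 (−0.66, adjusted p = 0.0396) and Mob4 (0.57, adjusted p = 0.0418) were called, as were 3.61% of all genes. With all arrays their adjusted p in limma was 0.617 and 0.642.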

How the data were processed

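Hippocampal RNA was hybridised to 6 Affymetrix arrays, and groups were taken from the sample titles. The authors deposited 1 linear signal intensity for each probe set, made with MAS5 per the submitters' processing notes, which give no settings here. Every array has a 2% trimmed mean of 100.03 to 100.04, so its values are relative to its own total.

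The platform annotation gave a single symbol for 20393 of the 22690 probe sets, several for 691 and none for 1606, and only the first were named. The 64 control probe sets were left out of the tests. Log2 signals were used without further normalization. Probe sets at or above the 40th percentile of mean log2 signal were kept (13576), and the probe set of highest mean log2 signal stood for its gene, giving 7866 genes. The label was tested in R 4.3.3 by limma 3.58.1 (lmFit, then eBayes with an intensity trend; two-sided; Benjamini-Hochberg over all genes), and other probe sets of a gene in a like model over all probe sets kept. No permutation test is reported, since 3 arrays against 3 allow no exact two-sided p under 0.1. The number of arrays limits the precision: the median SE of the phosphatase genes was 0.164. As separate animals per pool are not stated, a p-value here reflects only how these pools vary, which may be technical. Tested on simulated data over 7866 genes, the same model called 13.9% of changes of 1.5-fold, 53.9% of those of 2-fold and 83.4% of those of 3-fold. In the simulation 201 genes were changed, and noise was independent between genes and arrays, without the shift shared by arrays 3. These shares therefore hold for that setting and not for the arrays themselves.

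The phosphatase genes, the lists and the alternatives were chosen with earlier results of these data known. Genes named were the catalytic, calcineurin B and PP2A scaffold subunits, Ppp1r1a, Ppp1r1b, Ppp1r2 and Ppp1r15a, up to 3 genes per family and direction by smallest p, the genes without overlap, the highest and lowest signal per family, and up to 4 partner genes per direction; values of other genes, such as Ppp4r3b and the further partner genes, were picked after they were seen. Ppp1r9a, Ppp1r9b and Ppp1r12a, also set by the rule, were not analysed here. Alternatives were median centring, quantile normalization, an offset of 64 or 16 added to the signal, a filter at the 60th percentile or none, other priors, array weights, blocks, removal of the trend on gene span, other probe set rules, arrays left out and an adjusted p of 0.1. Lists of neuron, interneuron, astrocyte, oligodendrocyte, microglia, vascular, choroid plexus, blood, striatum, thalamus and cortex markers were summed per array.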

Additional observations from a re-analysis of the deposited data

How the results depend on the processing

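Over all genes the count called was 0 with each array left out in turn and in the other settings, except 16 with array weights, 1 with the replicate block, 1 with a block for the arrays numbered 3 and 284 without both arrays numbered 3. For the phosphatase genes it was 0 throughout except 1 without both arrays numbered 3. Whether the array numbers pair the samples is not settled by the values. The correlation of deviations from group means was 0.074 for number 1, 0.366 for number 2 and 0.397 for number 3. Rsk2-KO 1 correlated best with WT 2 (0.196), while Rsk2-KO 2 and Rsk2-KO 3 correlated best with the WT array of their own number. The main fit took no pairing. The replicate block leaves family medians as they are by construction. The number of phosphatase genes without overlap, counted under settings chosen after seeing the data, was 29 without both arrays numbered 3 and 5 to 17 with 1 array left out. With 2 against 2 or 2 against 3 arrays fewer arrays need to be separated. The share over all genes also grew, by an amount that differed with the arrays left out, and the reason was not tested.

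With all arrays kept, or with both arrays numbered 3 left out, these family medians moved by more than the spread between arrays: PP2A was 0.039 and calcineurin 0.20 with the mean of all probe sets, PP2A was −0.056 without probe sets ending in _x_at or _s_at, and PPM was −0.19 without both arrays numbered 3. With 1 array left out the medians ran from −0.15 to −0.077 for PP1, −0.050 to 0.016 for PP2A, −0.095 to 0.074 for calcineurin and −0.080 to 0.017 for PPM. PP1 was below 0 in every setting, and the median of PP2A, calcineurin or PPM was on either side of 0.

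Among the genes set by the naming rule, these turned sign, and other genes were not followed through every setting. Outside the rule, Ppp1r14a was 0.012 without both arrays numbered 3. With quantile normalization Ppp2ca was 0.0080, Ppp2r1a 0.048 and Ppp3ca 0.071. With array weights Ppm1m was 0.12, Ppp1r1b 0.16, Ppp2r1b −0.018, Ppp3r1 −0.017 and Ppp6r2 −0.028. With the mean of all probe sets Ppm1a was 0.16, Ppp2ca 0.039, Ppp3ca 0.051 and Ppp3cb 0.14. With the span trend removed Ppm1m was 0.053 and Ppp1r15a 0.026. Without both arrays numbered 3 Ppm1d was −0.21, Ppm1m 0.21, Ppp1r15a 0.075, Ppp1r1b 0.21, Ppp2r1b −0.013 and Ppp6r2 −0.0047. The cause was not tested. With 1 array left out, sign changes occurred in Ppm1a (−0.20 to 0.017), Ppm1b (−0.069 to 0.20), Ppm1d (−0.15 to 0.80), Ppm1m (−0.20 to 0.14), Ppp1cb (−0.17 to 1.08), Ppp1r15a (−0.33 to 0.11), Ppp1r1b (−0.44 to 0.072), Ppp2r1b (−0.021 to 0.14), Ppp2r3d (−0.37 to 0.0080), Ppp3ca (−0.14 to 0.046), Ppp3r1 (−0.076 to 0.10), Ppp4c (−0.23 to 0.031), Ppp6r2 (−0.051 to 0.19) and Ppp6r3 (−0.14 to 0.071). Signals near the filter, as for Ppp3cc and Ppp6r2, limit what can be read from dim genes.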

Other observations

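Marker lists outside the phosphatases gave these medians of the log2 difference: neuron 0.0096 (9 genes), interneuron 0.22 (7), astrocyte 0.0067 (8), oligodendrocyte 0.02 (8), vascular −0.20 (8), choroid plexus 0.38 (2), blood 0.10 (1), striatum 0.18 (3), thalamus 0.02 (2) and cortex 0.06 (3), with 0 genes called in any list. Microglial markers had a median of −0.06 over 9 genes, and hippocampal neuron markers 0.03 over 5 genes. Groups did not overlap in 6 of the 65 marker genes tested (9.23%, against 14.2% of all genes), each with an adjusted p of 0.617 or 0.622 in limma. These were Nefm (log2 difference 0.26), Npy (0.23) and Rgs5 (0.48), which were higher, and Trem2 (−1.07), Tyrobp (−0.32) and Vtn (−0.75), which were lower. Trem2 was dim, with 24.1, 15.2 and 11.5 for the KO label against 39.4, 35.0 and 28.3 for the WT label, near the filter of 19.2. In the microglial list Cx3cr1 (0.65), Itgam (0.28) and P2ry12 (0.05) lay on the other side of 0 from Trem2 and Tyrobp.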
